A study of Homo sapiens with 4 samples.

Results

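SKP2 and 8 genes that act with it or beside it in ubiquitin ligases were measured in RNA that co-precipitated with TIA1 and in total RNA of KYSE180 cells. The 9 genes are SKP2, SKP1, CUL1, RBX1, CKS1B, CKS2, FBXW7, BTRC and FBXO5. They were taken by symbol, from every probe besides controls whose transcript identifier mapped to a listed gene. This gave 11 of 50599 probes and 9 of 24136 gene symbols on the array. A single probe stood for 7 of the genes, and SKP1 and CKS1B had 2 probes each. All 9 were among the 13039 genes that passed the detection filter (probes detected on both arrays of TIA1 RIP or on both of total RNA), but 3 of them, FBXW7, BTRC and FBXO5, passed through TIA1 RIP alone, because their probes were not well above background on 1 of the total RNA arrays.

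KYSE180 is an established cell line of esophageal squamous cell carcinoma (ESCC), and the cells of both groups carried no transgene or treatment that the labels name. In ribonucleoprotein immunoprecipitation (RIP), an antibody against the RNA-binding protein TIA1 pulled TIA1 out of cytoplasmic lysate together with its bound transcripts, and this group is called TIA1 RIP. It was set against total RNA of the same line to ask which mRNAs associate with TIA1, with 2 arrays in each group, 4 in all. Whether total RNA was made from cytoplasmic lysate or from whole cells is not stated in the labels, so a ratio may hold the difference between cytoplasm and cell as well as binding, and these cannot be told apart. RNA from control IgG precipitates was not analysed here, so unspecific binding to the antibody or beads was not measured. Nothing in the labels says that the replicates came from separate cultures, and the p-values therefore measure only the spread between these arrays, which may be technical. All 7 squamous epithelial markers looked for were detected on all 4 arrays, and of 3 markers of other cell types the endothelial PECAM1 was detected on none, the fibroblast collagen COL1A1 on 3 and the leukocyte gene PTPRC on all 4, through 1 of its 4 probes.

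SCF ligases attach ubiquitin to proteins that have been marked by phosphorylation. CUL1 is the scaffold, RBX1 is the RING subunit that brings the ubiquitin-loaded E2 enzyme, and SKP1 is the adaptor that holds an exchangeable F-box protein, the part that recognizes the substrate. SKP2 is the F-box protein that, together with its cofactor CKS1B, leads the cyclin-dependent kinase inhibitor p27 to degradation, and it is an oncogene product in many carcinomas. TIA1 is known to prefer uridine-rich stretches of RNA.

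The uridine-rich stretches of the 3′ untranslated regions (UTRs) are shown for the 4 genes whose TIA1 RIP values both exceeded both total RNA values (SKP2, CKS2, BTRC and FBXO5), and for the core subunits SKP1 and RBX1, whose values did not. Each is the 30-base window of the 3′ UTR with the most T (U in the RNA), read 5′ to 3′ on the transcript strand from the GENCODE annotation of GRCh37, and capitals mark runs of at least 4 T.
SKP2: attctacttctaTTTTTTTTTTTTTTTTTT
CKS2: tttacTTTTgttcaataaagtttgtatgtt
BTRC: TTTTTgTTTTTTTTgttgTTTTgTTTTgtt
FBXO5: tttctaaagcTTTTTTTcattgtgtgtatt
SKP1: taataaTTTTTTTTTTTTTTTTTTTTTTTT
RBX1: tgtgTTTTTTTctgctttgTTTTTTcagtt
The window of SKP2 lies at chr5:36183357-36183386, that of CKS2 at chr9:91931582-91931611, that of BTRC at chr10:103314164-103314193 and that of RBX1 at chr22:41368580-41368609, all on the plus strand. The windows of FBXO5 at chr6:153291827-153291856 and of SKP1 at chr5:133490140-133490169 lie on the minus strand. T made up 80.0% of the SKP2 window, 83.3% of the BTRC window, 86.7% of the SKP1 window and 70.0% of the RBX1 window, against 60.0% for FBXO5 and 56.7% for CKS2. The long T runs were thus found in genes on both sides of the comparison.

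Values are log2 of the processed signal minus the 75th percentile of the same array, called the scaled log2 signal, so that 0 is the level of that percentile. Signals of different probes cannot be set against each other, and each gene is compared with itself. The arrays were of unequal brightness. The 75th percentile of the processed signal came to 1514 and 1271 for TIA1 RIP and to 714 for total RNA replicate 1. It was 69.9 for total RNA replicate 2, where 32.2% of spots were well above background, against 45.8% to 48.4% on the other arrays. Across the 13039 genes, which are not independent replicates, the arrays of TIA1 RIP had a Pearson r of 0.932 with each other and those of total RNA one of 0.733, whereas TIA1 RIP replicate 1 and total RNA replicate 1 had an r of 0.936. Results are therefore given against each total RNA array as well as on the means.

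SKP2 mRNA was higher on both TIA1 RIP arrays than on either total RNA array, a separation that held under each scaling tried and was lost when GC content was removed. The gene spans 36152091 to 36196951 of chromosome 5 (GRCh37, plus strand), and coordinates of the other genes are of the same build. Its scaled log2 signal was 1.81 and 2.33 on TIA1 RIP replicates 1 and 2, and 1.09 and 0.81 on the 2 replicates of total RNA in the same order, as for every gene below. The lowest TIA1 RIP value was 1.81 and the highest total RNA value 1.09, so the groups did not overlap. The TIA1 RIP mean was 2.07 ± 0.36 (SD, n = 2) and the mean of the total RNA arrays 0.95 ± 0.20 (SD, n = 2). The difference of 1.12 ± 0.78 (SE) on the log2 scale, 2.18-fold, did not pass the test across all genes (adjusted p = 0.776 from limma, unadjusted p = 0.194), and 15.7% of all genes had a higher one.

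The study judged association with TIA1 relative to GAPDH, an abundant mRNA of glycolysis that it took as a non-target. It asked for enrichment past 2.5-fold both on arrays and by sequencing of precipitated RNA. It then checked SKP2 by RIP and quantitative PCR against control IgG, and by pulldown with SKP2 RNA fragments. Only the arrays are examined here. GAPDH had scaled log2 signals of 6.49 and 6.69 in TIA1 RIP and 7.67 and 9.63 in total RNA. It was therefore lower in both TIA1 RIP arrays, with a log2 ratio of -2.06 (adjusted p = 0.776 from limma), and the gap between its own total RNA values was wide. Relative to GAPDH, SKP2 was 9.08-fold higher in TIA1 RIP on the means, with an unadjusted p of 0.0311 and an adjusted p of 0.221 from limma. The median of all genes was 4.07-fold on the same measure. In that limma fit 2636 of the 13039 genes had an unadjusted p under 0.05. By pairs of arrays, the enrichment of SKP2 over GAPDH was 3.74-fold and 4.64-fold for TIA1 RIP replicates 1 and 2 against total RNA replicate 1. It was 17.8-fold and 22.0-fold against total RNA replicate 2. All 4 pairs lay past 2.5-fold, the limit used in the study, and the lowest of the 4 was exceeded by the lowest pair of 8.51% of all genes. The study picked SKP2 from mRNAs past this limit on its arrays and by sequencing, so passing it here is no independent support. On the log2 scale, where this limit is 1.32, the median of all genes over GAPDH was 1.24 and 1.04 against total RNA replicate 1. Against replicate 2 it was 2.85 and 2.65, each in the order of the TIA1 RIP replicates.

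**Figure D1:**
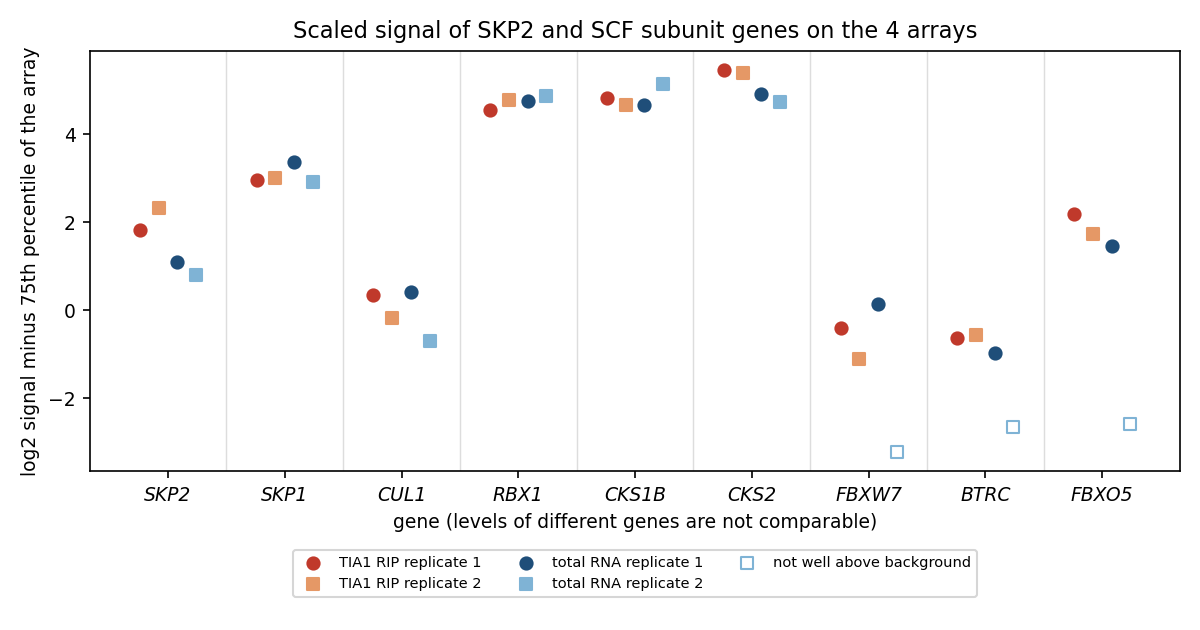
Scaled log2 signal (log2 processed signal minus the 75th percentile of the array) of the 9 genes on each of the 4 arrays, with open symbols where the probe was not well above background. SKP2, CKS2, BTRC and FBXO5 had both TIA1 RIP arrays above both total RNA arrays on this scale. With each array scaled to its median only SKP2 did. With transcript GC content removed only BTRC and FBXO5 did, whose probes were not well above background on total RNA replicate 2.

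The log2 ratios of the 3 constant subunits of the ligase were nearer to 0 than that of SKP2, a difference that was not tested. SKP1, on the minus strand of chromosome 5 from 133484626 to 133512655, had scaled log2 signals of 2.97 and 3.005 in TIA1 RIP and 3.38 and 2.91 in total RNA. The TIA1 RIP values fell between the total RNA values. Its log2 ratio of -0.16 (adjusted p = 0.965 from limma) was above 0 after quantile normalization, after scaling to the median and after another background correction. The 2 probes gave log2 ratios of -0.05 and -0.27.

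CUL1, on the plus strand of chromosome 7 from 148395006 to 148498202, stood at 0.34 and -0.18 in TIA1 RIP. In total RNA it stood at 0.41 and -0.71, so the groups overlapped, and the log2 ratio was 0.23 (adjusted p = 0.951 from limma), which turned to -0.37 with GC content removed, -0.33 without total RNA replicate 2 and -0.03 without TIA1 RIP replicate 1. RBX1, on the plus strand of chromosome 22 from 41347351 to 41369313, had 4.55 and 4.79 in TIA1 RIP and 4.76 and 4.86 in total RNA. These 4 values were close to each other, and the log2 ratio of RBX1 was -0.14 (adjusted p = 0.968 from limma), above 0 under the same 3 alternatives as SKP1.

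Relative to GAPDH, SKP1 was 3.74-fold, CUL1 4.88-fold and RBX1 3.79-fold higher in TIA1 RIP on the means. The median of all genes was 4.07-fold, so SKP1 and RBX1 lay below it. Against total RNA replicate 1 alone, no pair of these 3 genes reached 2.5-fold, with values of 1.71 and 1.52 for SKP1, 2.16 and 1.30 for CUL1 and 1.97 and 2.01 for RBX1. Against total RNA replicate 2 their values ran from 7.14-fold (RBX1) to 18.3-fold (CUL1). The enrichment of the scaffold, adaptor and RING subunits over GAPDH thus rested on total RNA replicate 2. That of SKP2, which the study had picked through this limit, was past it against either array.

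CKS1B and CKS2 are small paralogous proteins that bind cyclin-dependent kinases, and CKS1B is the one that SKP2 needs for recognition of p27. CKS1B (chromosome 1, plus strand, 154947129 to 154951727) had scaled log2 signals of 4.84 and 4.67 in TIA1 RIP and 4.67 and 5.15 in total RNA. The groups overlapped, and the log2 ratio of -0.16 (adjusted p = 0.965 from limma) was above 0 after quantile normalization, after scaling to the median and after the other background correction. Its 2 probes gave -0.31 and -0.00. The annotation lists 7 pseudogenes named after CKS1B, 3 after SKP1, 2 after RBX1 and 1 each after CUL1 and SKP2, and whether the probes also detect their transcripts was not tested.

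CKS2 (chromosome 9, plus strand, 91926110 to 91931618) had 5.47 and 5.39 in TIA1 RIP and 4.91 and 4.74 in total RNA. Both TIA1 RIP arrays were higher, and each group was tight, with an SD of 0.05 in TIA1 RIP and 0.12 in total RNA. Its log2 ratio was 0.60 ± 0.77 (SE, adjusted p = 0.850 from limma). Over GAPDH, CKS2 was 3.33-fold and 2.75-fold higher against total RNA replicate 1 and 14.6-fold and 12.1-fold higher against replicate 2. CKS1B was 2.54-fold and 1.97-fold higher against replicate 1, so a single pair of it was just past the limit, and 7.09-fold and 5.49-fold against replicate 2.

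Of the other F-box proteins, FBXW7 targets cyclin E, MYC and NOTCH1 for degradation and acts as a tumour suppressor. FBXW7 (chromosome 4, minus strand, 153241696 to 153457244) had scaled log2 signals of -0.41 and -1.11 in TIA1 RIP and 0.14 in total RNA replicate 1. On total RNA replicate 2 its value of -3.22 came from a processed signal of 7.48 with a spot error of 100%, not well above background. The TIA1 RIP arrays were thus below the array that measured it, and the log2 ratio on the means was 0.78 ± 1.19 (SE, adjusted p = 0.875 from limma). Relative to GAPDH and total RNA replicate 1, FBXW7 was 1.55-fold and 0.826-fold, the lowest values of the 9 genes in each of these pairs.

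BTRC (β-TrCP) recognizes phosphorylated β-catenin and IκBα. The gene spans 103113790 to 103317078 of chromosome 10, plus strand. Its scaled log2 signal was -0.63 and -0.56 in TIA1 RIP. In total RNA it was -0.98 for replicate 1 and -2.65 for replicate 2, where it was not well above background (processed signal 11.1, spot error 65.0%). Both TIA1 RIP arrays were above the array that measured it, by 1.27-fold and 1.34-fold before GAPDH was taken into account. Relative to GAPDH these values were 2.89-fold and 2.64-fold, and the log2 ratio on the means was 1.22 ± 0.88 (SE, adjusted p = 0.776 from limma).

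FBXO5 (EMI1) is an F-box protein best known as an inhibitor of the anaphase-promoting complex, the other large ubiquitin ligase of the cell cycle. FBXO5 (chromosome 6, minus strand, 153291654 to 153304714) had 2.18 and 1.73 in TIA1 RIP and 1.45 on total RNA replicate 1. On total RNA replicate 2 its value was -2.58, from a processed signal of 11.7 with a spot error of 60.0%, again not well above background. Set against the floor of that array, the gap between the total RNA arrays was at least 2.57 on the log2 scale. The log2 ratio on the means was 2.52 ± 1.32 (SE, unadjusted p = 0.0977, adjusted p = 0.776 from limma), and its size rests on that value.

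For the 3 genes that total RNA replicate 2 did not measure, the comparison with that array is only a bound. The bound sets the TIA1 RIP value against -1.12, the lowest scaled log2 signal of a probe well above background on that array. FBXO5 was then at least 9.82-fold and 7.20-fold higher in TIA1 RIP replicates 1 and 2, BTRC at least 1.40-fold and 1.47-fold, and FBXW7 at least 1.63-fold and 1.00-fold. FBXO5 was 1.65-fold and 1.21-fold higher than on total RNA replicate 1, which measured it. Only 1 of the 2 total RNA arrays therefore measured these genes, and the sizes of their ratios on the means rest on the other.

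**Figure D2:**
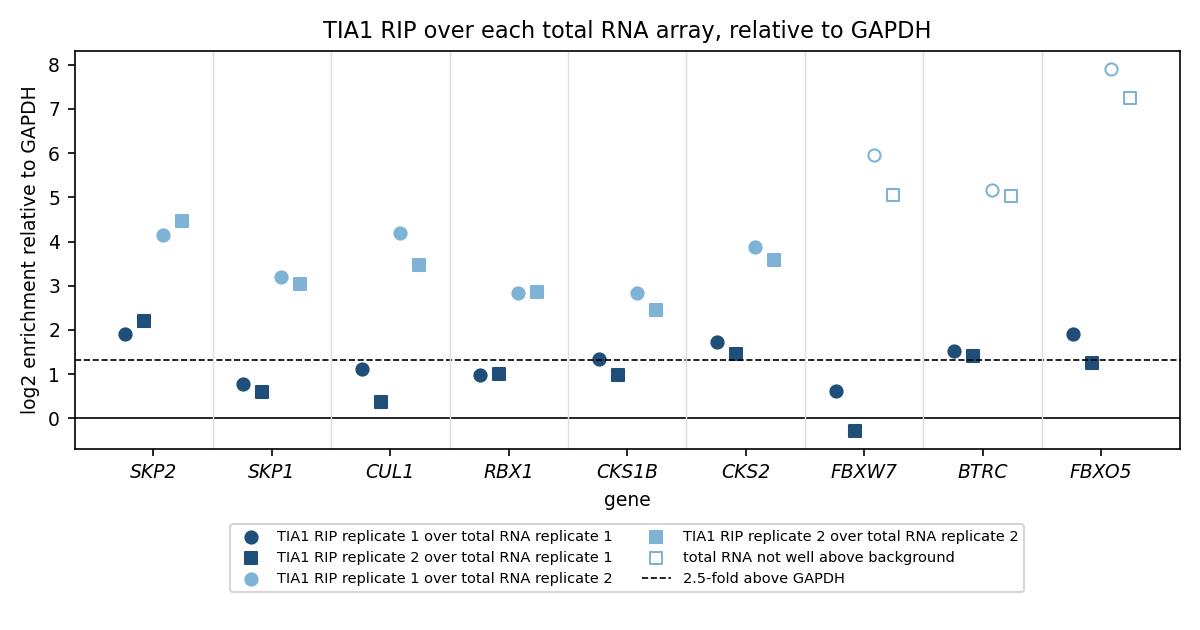
Log2 enrichment of each gene over GAPDH for each of the 4 pairs of a TIA1 RIP and a total RNA array; dark symbols are against total RNA replicate 1, light symbols against replicate 2, and open symbols mark probes not well above background there. Against replicate 2 all 9 genes lie past the dashed 2.5-fold line, and against replicate 1 SKP2, CKS2 and BTRC do so with both TIA1 RIP arrays.

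Counted together, 9 of the 9 genes were past 2.5-fold above GAPDH on the means, but so were 72.4% of all genes. In all 4 pairs of arrays, 3 of the 9 genes (SKP2, CKS2 and BTRC) were past it, against 26.2% of all genes. For TIA1 RIP replicate 1 against total RNA replicate 1, 5 of the 9 genes were past the limit, where 46.0% of all genes were. The share for TIA1 RIP replicate 2 against the same array was 3 of 9, and 40.0% of all genes. Against total RNA replicate 2 all 9 genes were past it with either TIA1 RIP array, where 76.7% and 77.7% of all genes were. The counts against total RNA replicate 1 and in all 4 pairs were thus near the background. Of the 6 genes detected on every array, 6 were past the limit on the means, as were 65.4% of the genes so detected.

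Both TIA1 RIP arrays lay above both total RNA arrays for 4 of the 9 genes (SKP2, CKS2, BTRC and FBXO5), against 19.4% of all genes. Both lay below for 0 of the 9, against 21.7% of all genes. Of the 6 genes detected on every array, 2 (SKP2 and CKS2) had both TIA1 RIP arrays above, against 15.5% of the 9238 genes so detected. An exact permutation test of 2 arrays against 2 cannot give a two-sided p below 0.333, so this separation carries no significance for a single gene. In limma on the 75th percentile scale, 0 of the 9 genes passed an adjusted p of 0.05, as did 0.0% of all genes. At an unadjusted p under 0.05 there were also 0 of the 9, while 144 of all genes were higher and 524 lower. In limma relative to GAPDH, 0 of the 9 and 0 of all genes passed the adjusted threshold, with adjusted p from 0.221 to 0.295 for the 9. In the same limma fit 2 of the 9 (SKP2 and CKS2) had an unadjusted p under 0.05, as had 2636 of the 13039 genes.

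The median log2 ratio of the 9 genes was 0.60, beside -0.04 for all genes. Against total RNA replicate 1 it was 0.08, where the median of all genes was 0.07. Against total RNA replicate 2, where 3 of the 9 stood at values not well above background, it was 0.79, and that of all genes -0.29. Over the 6 genes detected on all 4 arrays the median was 0.04, beside -0.32 for the genes of the table detected on all 4. The same 6 genes had a median of -0.00 against total RNA replicate 1, beside 0.05 for the genes so detected, and of 0.38 against replicate 2, beside -0.79. Without total RNA replicate 1, 3 of the 9 genes (FBXW7, BTRC and FBXO5) passed the adjusted threshold of limma, as did 29.9% of all genes, in a fit that takes the lone total RNA array to vary like the TIA1 RIP arrays. These are the 3 genes whose probes were not well above background on that array, so nothing can be read from their calls. Without total RNA replicate 2, 4 of the 9 (SKP2, CKS2, BTRC and FBXO5) were past 2.5-fold above GAPDH on the means, where 42.3% of all genes were.

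**Figure D3:**
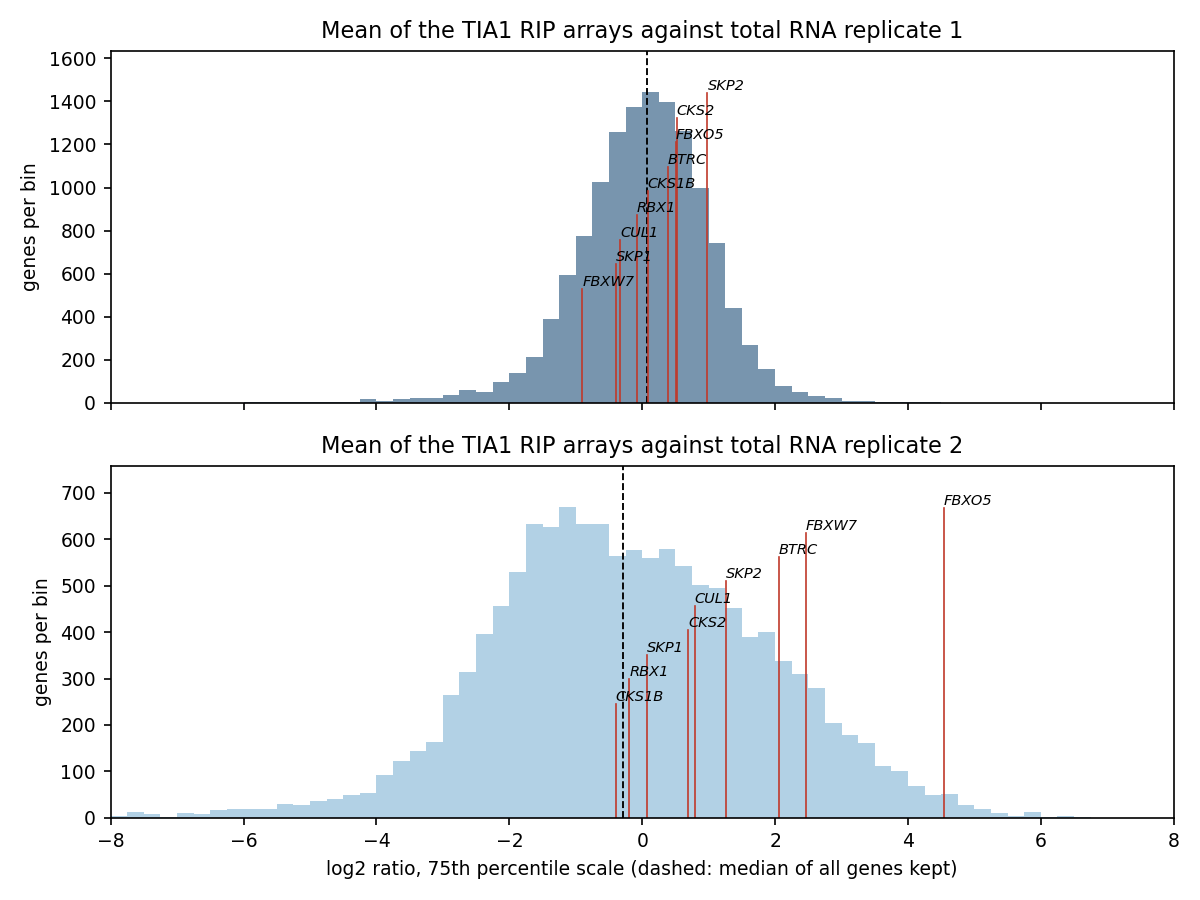
Histograms of the log2 ratio of the mean of the TIA1 RIP arrays to total RNA replicate 1 (top) and replicate 2 (bottom) for the 13039 genes, on the 75th percentile scale, with the 9 genes as red lines and the median of all genes dashed. The 9 genes spread around the median of 0.07 against replicate 1, SKP2 being the highest of them, and FBXO5 lies far to the right against replicate 2, where its probe was not well above background.

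Against total RNA replicate 1, SKP2 had the highest log2 ratio of the mean of TIA1 RIP, 0.98, exceeded by 14.3% of all genes, followed by CKS2 with 0.52, FBXO5 with 0.50 and BTRC with 0.39. The last 3 lay close together relative to the distance between the TIA1 RIP arrays of FBXO5, which was 0.45. FBXW7 was lowest with -0.90, and 85.0% of all genes were above it. Among the 6 genes that total RNA replicate 2 measured, SKP2 was again highest with 1.26, followed by CUL1 with 0.79 and CKS2 with 0.69. The mean of TIA1 RIP lay above the floor of that array by at least 3.07 on the log2 scale for FBXO5, 0.52 for BTRC and 0.35 for FBXW7, so the places of BTRC and FBXW7 relative to SKP2 are not known. The lower value of SKP2 against the 2 total RNA arrays, 0.98, was also higher than that of CKS2, 0.52.

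What the 9 genes shared, and the selection did not use, was a low GC content. The GC content of their transcripts ran from 38.1% (FBXO5) to 47.9% (RBX1), with SKP2 at 40.9%, and all 9 were below the median of 49.9% over 11630 genes with an annotated 3′ UTR. Across these genes, which are not independent and share the same 4 arrays, GC content had a Spearman rho of -0.05 with the ratio of the TIA1 RIP mean to total RNA replicate 1. The rho was -0.75 with the ratio to total RNA replicate 2 and 0.72 with the difference between the total RNA arrays. GC-rich transcripts were thus relatively brighter on total RNA replicate 2. The median difference of total RNA replicate 2 minus replicate 1 was -0.46 for the 9 genes and 0.38 for all genes kept. FBXW7, BTRC and FBXO5 enter it with values not well above background on replicate 2.

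When the trend with GC content was removed from each array, the scaled log2 signal of SKP2 was 1.88 and 2.47 in TIA1 RIP and 1.22 and 2.74 in total RNA. Its TIA1 RIP values then stayed above total RNA replicate 1 but fell below replicate 2, and its log2 ratio was 0.20. Under this alternative CKS2 likewise overlapped, with a log2 ratio of -0.27, whereas BTRC and FBXO5 kept both TIA1 RIP values above both total RNA values. Neither BTRC nor FBXO5 was well above background on total RNA replicate 2, so only their comparison with replicate 1 was measured. SKP1 and CUL1 then had both TIA1 RIP values below both total RNA values. Relative to GAPDH, 4 of the 9 genes (SKP2, FBXW7, BTRC and FBXO5) were past 2.5-fold on the means, where 7023 of 11675 genes were. The last 3 of these 4 were kept through TIA1 RIP alone. These 4 also passed the adjusted threshold of limma relative to GAPDH when the replicate number was fitted as well, as did 54.5% of all genes, and 0 of the 9 did so without it. The part of GC content in the ratios against total RNA replicate 2 was not tested.

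Of the 9 genes, 7 had a 3′ UTR with more U than the median gene (29.4%). The 3′ UTR of SKP2, 2288 nt in the transcript used, held 34.2% U, a share reached by 23.5% of the 733 genes whose 3′ UTR was within 10% of its length. FBXO5 (628 nt, 39.0% U) and CKS2 (278 nt, 38.1% U) stood out more among genes of like length, with 4.06% and 6.88% of them reaching these shares. BTRC, with 4190 nt and 29.3% U, did not, since 65.4% of genes of like length reached its share. U content had a Spearman rho of 0.07 across genes with the ratio to total RNA replicate 1 and of 0.66 with the ratio to replicate 2, a split between arrays like that of GC content with the opposite sign.

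The AU-rich pentamer AUUUA, searched on the transcript strand with overlapping copies counted, was found in the 3′ UTR of all 9 genes and of 69.7% of all genes with one. SKP2 held 4 copies, and 59.8% of genes of like length held as many. SKP1, whose 3′ UTR of 8798 nt is by far the longest here, held 17, FBXW7 held 7, BTRC 5, CUL1 4, CKS1B, CKS2 and FBXO5 2 each, and RBX1 1. A run of at least 5 U was found in all 9 and in 78.4% of all genes, and SKP2 had 13 such runs, as did FBXW7 and BTRC. Each gene was described by 1 GENCODE transcript, and whether the probe detects that isoform was not tested. A match says only that these letters are present, not that TIA1 binds there.

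**Figure D4:**
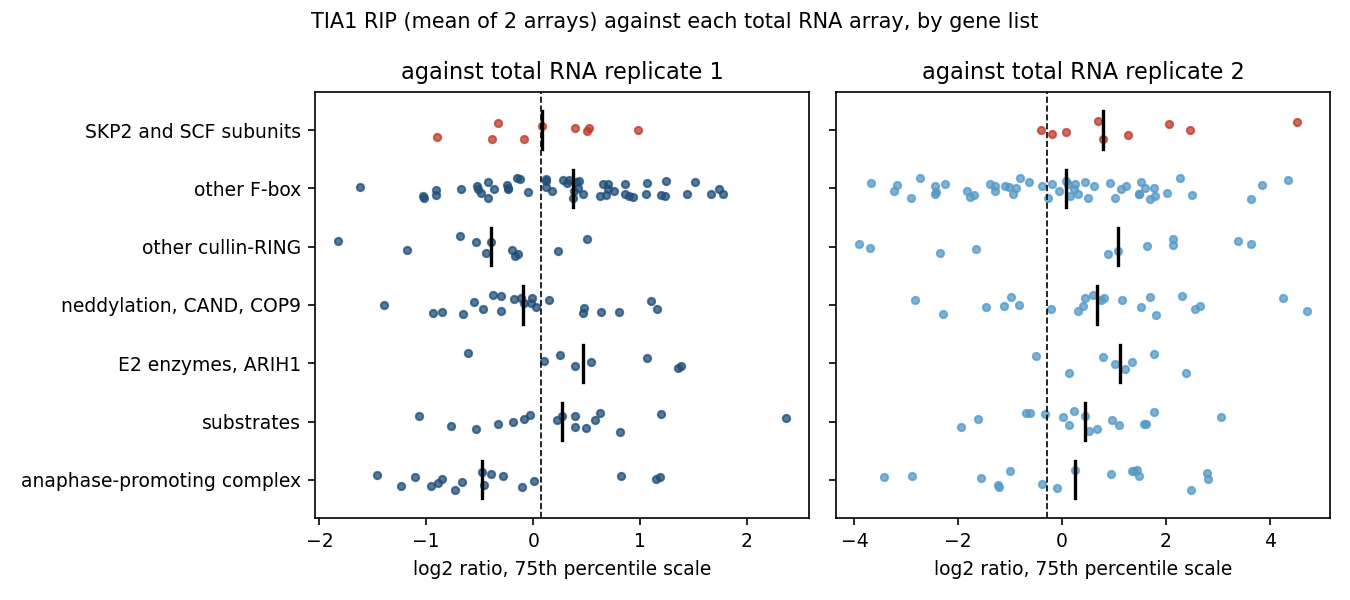
Log2 ratio of the mean of the TIA1 RIP arrays to total RNA replicate 1 (left) and replicate 2 (right) on the 75th percentile scale, 1 point a gene, for the 9 genes and for lists of related genes; black bars are list medians and the dashed line is the median of all genes. The medians of the lists move between the panels, that of the other cullin-RING genes from -0.39 to 1.07.

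Related genes of the ubiquitin system were described by the same counts. Detection on all 4 arrays held for 36 of the 51 other F-box genes and 7 of the 11 other cullin-RING genes. It held for 16 of the 22 neddylation, CAND and COP9 genes and 6 of the 8 E2 and ARIH1 genes. It held for 13 of the 17 substrate genes and 13 of the 17 anaphase-promoting complex genes. The rest were kept on detection within 1 group, so their counts can rest on values not well above background. Of 51 detected genes for other F-box proteins, 39 were past 2.5-fold above GAPDH on the means (76.5%, against 72.4% of all genes). In all 4 pairs 19 were (37.3%, against 26.2%). Both TIA1 RIP arrays were above both total RNA arrays for 13 (25.5%, against 19.4%) and below for 7 (13.7%, against 21.7%). The median log2 ratio of these F-box genes was 0.19. FBXW11, the paralogue of BTRC, had 3.91 and 3.75 in TIA1 RIP and 3.15 and 2.05 in total RNA, so that its groups did not overlap, and it was 9.81-fold higher relative to GAPDH, with 2.98-fold as its lowest pair. CCNF, the F-box protein known as cyclin F, was 2.90-fold higher over GAPDH, below the 4.07-fold median of all genes, with a lowest pair of 1.55-fold. In limma 0 of these F-box genes passed the adjusted threshold and 1 was lower at an unadjusted p under 0.05.

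Of 11 other cullin-RING genes, 7 were past the limit on the means (63.6%, against 72.4% of all genes). In all 4 pairs only 1 was (9.09%, against 26.2%). That gene was RNF7, the paralogue of RBX1, with 3.05 and 3.32 in TIA1 RIP and 2.68 and 2.11 in total RNA. RNF7 was 7.20-fold higher over GAPDH and its groups did not overlap, with 1 of its 3 probes not well above background on total RNA replicate 2. CUL3, the scaffold of the BTB-type ligases, had 3.53 and 3.12 in TIA1 RIP and 4.01 and -0.31 in total RNA. It was 11.6-fold higher over GAPDH on the means but 1.62-fold and 1.06-fold against total RNA replicate 1, and its total RNA values were 4.33 apart on the log2 scale. In limma 0 of the 11 passed the adjusted threshold and 1, CUL9, named after its values were seen, was lower at an unadjusted p under 0.05.

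A further list held 22 genes of neddylation, the CAND exchange factors and the COP9 signalosome, which switch cullins on and off. Of these, 18 (81.8%) were past the limit on the means and 5 (22.7%) in all 4 pairs, against 72.4% and 26.2% of all genes. Of the genes that regulate CUL1 in this way, NEDD8 was 2.58-fold, its E2 enzyme UBE2M 2.88-fold, COPS5, the signalosome's protease, 6.66-fold and CAND1 1.55-fold relative to GAPDH. Only COPS5 among them lay above the 4.07-fold median of all genes. None of these 4 was past 2.5-fold in all 4 pairs, and for NEDD8 and CAND1 both TIA1 RIP arrays were below both total RNA arrays. Over the 22 genes both were above for 7 (31.8%, against 19.4% of all genes) and below for 5 (22.7%, against 21.7%). All 8 ubiquitin-side E2 and ARIH1 genes were past the limit on the means and 3 (37.5%) in all 4 pairs, against 72.4% and 26.2% of all genes. CDC34, the E2 enzyme that works with SCF-SKP2, was one of these 3, at 5.06-fold with a lowest pair of 3.73-fold. In limma 0 of the 22 and 0 of the 8 passed the adjusted threshold, and likewise 0 had an unadjusted p under 0.05.

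Of 17 detected genes for substrates of SKP2, FBXW7 or BTRC, 15 were past the limit on the means and 5 in all 4 pairs (88.2% and 29.4%, against 72.4% and 26.2% of all genes). Both TIA1 RIP arrays were above both total RNA arrays for 4 (23.5%, against 19.4%) and below for 0 (against 21.7%). Of these 4, FOXO1, MCL1 and PDCD4 stood at -2.44, -1.66 and -3.43 on total RNA replicate 2, below its floor of -1.12. WEE1, the other, stood at 0.18 there. CDKN1B, which encodes p27, the substrate of SKP2, had 0.63 and 1.11 in TIA1 RIP and 0.37 and 0.64 in total RNA. Its groups overlapped by a narrow margin, its log2 ratio was 0.36 (adjusted p = 0.911 from limma), and over GAPDH it was 5.37-fold higher with a lowest pair of 2.70-fold. CCNE1, which encodes the FBXW7 substrate cyclin E1, was 6.59-fold over GAPDH with a lowest pair of 1.44-fold. The BTRC substrates CTNNB1 (β-catenin) and NFKBIA (IκBα) were 3.24-fold and 3.70-fold, with lowest pairs of 1.77-fold and 2.21-fold. Both lay below the 4.07-fold median of all genes on the means.

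SKP2 protein was first found bound to cyclin A and CDK2, and the mRNA of cyclin A2, like that of SKP2, was higher on both TIA1 RIP arrays. CCNA2 had 2.71 and 2.25 in TIA1 RIP and 1.87 and 0.59 in total RNA, without overlap, and was 9.93-fold higher over GAPDH with a lowest pair of 2.57-fold. The study picked CCNA2, like SKP2, from mRNAs past 2.5-fold over GAPDH, so this likeness is no independent result. CDK2 had -0.31 and -0.93 in TIA1 RIP and -0.97 and -0.47 in total RNA, which overlapped, and was 4.48-fold over GAPDH. The difference between CCNA2 and CDK2 was not tested.

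Of 17 detected genes of the anaphase-promoting complex, which FBXO5 inhibits, 12 were past the limit on the means and 3 in all 4 pairs (70.6% and 17.6%, against 72.4% and 26.2% of all genes). Both TIA1 RIP arrays were above both total RNA arrays for 3 of them (17.6%) and below for 7 (41.2%), against 19.4% and 21.7% of all genes. Its activators were on the low side, CDC20 at 2.49-fold and FZR1 at 1.76-fold over GAPDH, and both had TIA1 RIP arrays below both total RNA arrays. For FZR1 the TIA1 RIP arrays themselves were far apart, at 1.54 and -0.82. In limma 0 of the substrate genes and 0 of the anaphase-promoting complex genes passed the adjusted threshold, nor did any have an unadjusted p under 0.05.

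The genes with the pattern most like that of SKP2 were found by the Euclidean distance between scaled log2 signals over the 4 arrays, each gene centred on its own mean, among the 8388 genes that were detected on every array and whose probes carry an mRNA accession. Detection here required 1 probe of the gene. They were CEPT1 (distance 0.11), UXS1 (0.11), CCNI (0.12), OSBP (0.15) and LRRC1 (0.16). CCNI, which encodes cyclin I, had 5.06 and 5.43 in TIA1 RIP and 4.34 and 4.04 in total RNA, and OSBP, an oxysterol-binding protein, had 1.40 and 2.11 and then 0.73 and 0.53. The lowest pairs of the 5 genes over GAPDH ran from 3.53-fold (LRRC1) to 3.998-fold (UXS1), on either side of the 3.74-fold of SKP2. On the total RNA arrays 1 of the 2 probes of LRRC1 was not well above background, so its values there rest partly on an undetected probe. These likenesses rest on 4 arrays and were not tested.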

How the data were processed

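Cy3-labelled cRNA from 0.2 µg of RNA was hybridised to 1-colour Agilent whole human genome arrays, 2 of TIA1 RIP and 2 of total RNA, on 1 slide scanned on 1 day, and grouped by the sample titles. The authors used Agilent Feature Extraction 10.7.1.1 and deposited its text files, whose processed signal is an intensity on a linear scale after background subtraction, not normalized between arrays. Other deposited columns are spot flags (uneven, outlying, saturated, above background), which served as filters. No spot was saturated. The study went on in GeneSpring and compared enrichment with that of GAPDH.

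Here the intensity of the 58717 spots besides controls, less 299 to 382 outlier spots an array, was converted to log2, the 75th percentile of the array was subtracted, and spots of a probe and detected probes of a gene were averaged. Detection required a flag of well above background on a share of 0.5 or more of a probe's spots, and probes detected on both arrays of either group were kept. Symbols came from RefSeq identifiers and GENCODE transcripts on GRCh37, the build in the headers, for 34510 of 50599 probes. limma 3.58.1 in R 4.3.3 (lmFit, eBayes) was run over all genes, as such and after subtraction of the GAPDH value of each array, with Benjamini-Hochberg adjustment over all genes, and was tested on simulated data. Tables and figures were made with Python 3.11.15, pandas 2.3.3 and matplotlib 3.10.9. The number of arrays limits the precision.

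The members and gene lists were chosen with earlier results of these data known. Named genes are the 9 members, GAPDH, 17 fixed partners and the 5 genes nearest to SKP2. Alternatives covered background correction (normexp), scaling, detection filter, probe choice, reference gene, fold, GC content, a replicate block and each array left out.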

Additional observations from a re-analysis of the deposited data

How the results depend on the processing

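Scaling moved the median log2 ratio of all genes from -0.04 to 0.27 (median), 0.13 (quantile) and -0.13 (normexp), and ratios below are not corrected for it. Members past 2.5-fold above GAPDH, 9 on the means and 3 in all 4 pairs, became 5 and 0 with quantile normalization, 1 (FBXO5) and 0 with the median of all genes as reference, 4 on the means with GC content removed, 1 in all 4 pairs (SKP2) with ACTB as reference, and 0 in all 4 pairs at a fold of 4. The count of all genes past the fold on the means moved too, from 9444 of 13039 to 4348 with quantile normalization. It was 1653 with the median of all genes as reference, 8584 with ACTB and 7023 of 11675 with GC content removed. Members without overlap, 4 above, became 1 (SKP2) with median scaling and 2 (SKP2 and CKS2) of the 6 detected on all 4 arrays. With GC removed they were 2 above (BTRC and FBXO5, not well above background on total RNA replicate 2) and 2 below. The median of the members, 0.60, became 1.09 with quantile normalization, 0.0445 for those detected on all 4 arrays and -0.27 with GC removed. Leaving out 1 array gave 0 to 3 members called, 4 to 9 past the fold, 3 to 9 past it in all remaining pairs, 4 to 9 without overlap and a median of 0.0826 to 0.787, the highest of each without total RNA replicate 1 and the lowest fold count and median without replicate 2. In all remaining pairs 5 were past the fold without TIA1 RIP replicate 2, and without total RNA replicate 2 there were 8 without overlap (5 above, 3 below). Leaving out an array can only keep or raise the count without overlap, for any set of genes. Among the alternatives, the share of all genes without overlap was taken only with detection on all 4 arrays, so the other counts cannot be read as results. Relative to GAPDH all 9 were called without total RNA replicate 1, as were 9774 of 13038 genes, and 3 of the 9 were not well above background on the remaining total RNA array. Of the 126 other ubiquitin genes, 99 were past the fold, 55 with quantile normalization and 54 without total RNA replicate 2. Both settings were planned but are named here with the results known. Over the arrays left out the count ran from 54 to 107.

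Single log2 ratios changed sign as follows. SKP1 became 0.22 (normexp), 0.0356 (quantile), 0.15 (median scaling) and, over the arrays left out, -0.39 to 0.0736 (the latter without total RNA replicate 1). RBX1 became 0.30, 0.28 and 0.17, and CKS1B 0.30, 0.35 and 0.15, under the first 3 of these, and CKS1B ran from -0.40 to 0.0826 over the arrays left out (the latter without total RNA replicate 2). FBXW7 became -0.11 with normexp and -0.90 without total RNA replicate 2. CUL1 became -0.37 with GC removed, -0.03 without TIA1 RIP replicate 1 and -0.33 without total RNA replicate 2, and CKS2 -0.27 with GC removed. The cause was not tested.

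Same-numbered arrays share only a number in the labels, and their deviations from the group means correlated across genes with r = 0.45. Fitting this number as a block, 0 members were called, and 57 of all genes were higher and 299 lower, where the fit without it called 0. Of the 126 other ubiquitin genes the block called 1, CUL9, which was lower (adjusted p = 0.0488 from limma). Without total RNA replicate 1, 35 of them were called, 20 higher and 15 lower. With the block and GC removed together, the members' median was -0.27, 4 were past the fold, and the ratios of CUL1 (-0.37) and CKS2 (-0.27) were those without the block. In that fit 4 members were called relative to GAPDH (SKP2, FBXW7, BTRC and FBXO5, of which the last 3 were kept through TIA1 RIP alone), as were 54.5% of all genes. GC removal without the block was chosen after seeing the data and called 0. The low signal of total RNA replicate 2 limits what can be said of FBXW7, BTRC and FBXO5.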
